A study of Mus musculus with 2 samples.

Results

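The genes described here are 5 enzymes of glycolysis, Aldoa, Gapdh, Pgk1, Eno1 and Pkm, together with Egln3, which encodes an oxygen-dependent hydroxylase of hypoxia-inducible factors (HIFs). They were found by gene number: a probe was taken for a gene where the number after 1 or 2 zeros in its identifier was that gene's NCBI number. This gave 7 probes for the 6 genes, 2 of them for Pgk1, out of 8884 probes and 7409 genes named in the same way. No annotation of the probes was used, so each name depends on that match.

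The probes were read in mouse embryonic fibroblasts of the outbred NMRI stock, whose division had been blocked beforehand by mitomycin C. Both cultures were plated at 55000 cells per square centimetre on gelatine and spent 24 h, starting the next day, in serum replacement medium made for human embryonic stem cells. Whether the cells came from pooled embryos, and from which embryonic day, is not stated in the labels. One culture received FGF2 at 40 ng/ml, and the control received the same medium without FGF2 (0 ng/ml). Each was measured once, on a bead array of 24044 probes. Without replicates the number of arrays limits the precision, no p-value was computed, and anything else that set the 2 cultures apart is confounded with FGF2.

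On the FGF2 array 7424 probes (30.9%) had a detection score of at least 0.99, and on the control array 7599 (31.6%). A probe at or above that score is called detected. All 6 fibroblast marker genes with a named probe were detected, among them Dcn with deposited signals of 9883.3 with FGF2 and 11747.6 in control. The collagen genes in that list were lower with FGF2, and the signals of the whole list summed to 15792 with FGF2 and 33358.4 in control. Of 6 leukocyte markers 2 were detected on at least 1 array. Cd53 was detected with FGF2 only, with signals of 318.7 with FGF2 and 176.7 in control. Lyz2 was detected on both arrays, with 220.2 with FGF2 and 374.8 in control. The leukocyte list summed to 1014.4 with FGF2 and 1109.3 in control. The pan-leukocyte marker Ptprc was not detected on either array, and neither was the endothelial marker Pecam1 nor any of 4 stem cell markers. The epithelial list, with 2 of 3 detected, summed to 589 with FGF2 and 530.9 in control, and the erythroid list, with 1 of 2 detected, to 330.2 with FGF2 and 329.1 in control. Krt18 of the epithelial list and Hbb-b1 of the erythroid list were detected with FGF2 only. Each sum takes the brightest probe of every listed gene with a named probe, detected or not. No background was subtracted, so sums over dim probes hold much background and say little about cell content. The part of these marker differences in the ratios of the 6 genes was not tested.

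Glycolysis splits glucose into pyruvate in the cytosol and yields ATP without oxygen. Aldolase cleaves the phosphorylated hexose, glyceraldehyde-3-phosphate dehydrogenase and phosphoglycerate kinase carry the first ATP-yielding step, and enolase and pyruvate kinase carry out the last steps. Many of these genes are known targets of HIF-1, a transcription factor whose alpha subunit is marked for destruction by the EGLN prolyl hydroxylases when oxygen is present. Egln3 is known both as one of these hydroxylases and as a HIF target.

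All 6 genes had a higher signal with FGF2 than in control. Among the 5 detected on both arrays, Eno1 gave the highest ratio, at 2.59-fold, and Gapdh and Pgk1 the lowest, at 1.67-fold and 1.69-fold. After quantile normalization of both arrays, 4 of the 6 were at least 2-fold higher and all 6 at least 1.5-fold higher. The background was taken from the 3005 named genes with a detected probe on either array. Of these, 1.46% were 2-fold higher or more and 5.29% passed 1.5-fold, while in the other direction 2.6% passed 2-fold and 6.79% passed 1.5-fold. The 6 genes were chosen with earlier results of these arrays known, so their count describes them and tests nothing. In RNA from whole cultures, more RNA per cell and more cells carrying a transcript cannot be told apart.

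**Figure D1:**
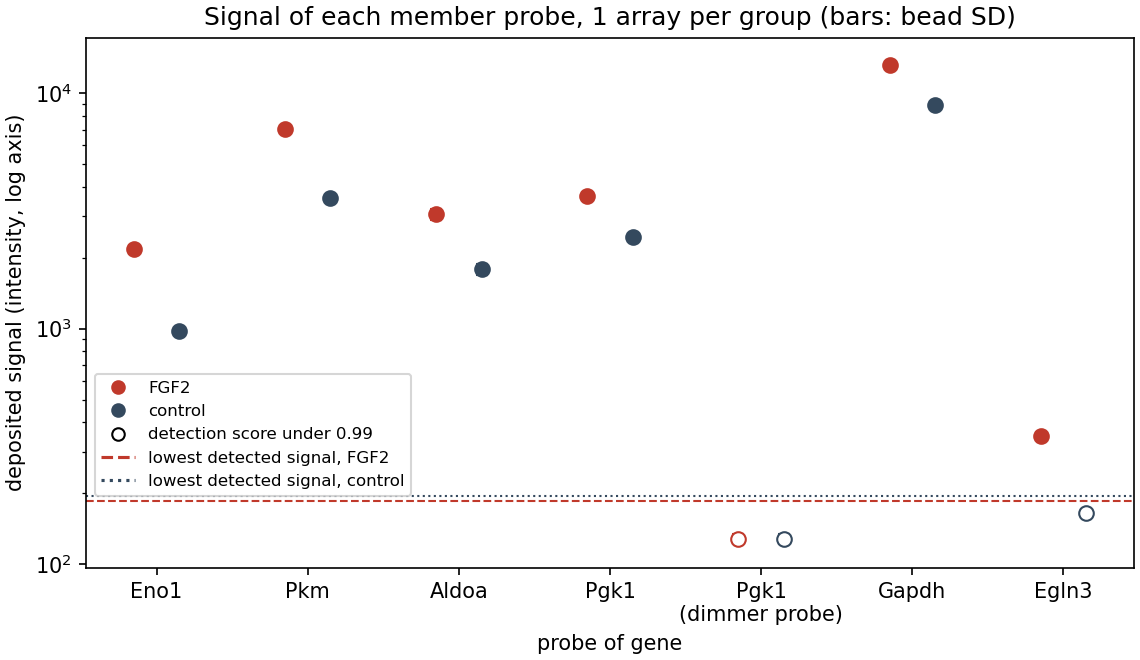
Deposited signal (intensity, log axis) of the 7 probes on the FGF2 array (red, left) and the control array (dark, right); bars are the bead standard deviation, smaller than most points, open points have a detection score under 0.99, and lines mark the lowest detected signal of each array. The brightest probe of each gene lay higher with FGF2, while the dimmer Pgk1 probe, at 128.4 and 128.3, lay under both lines.

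Among the enzymes in the order of the pathway, Aldoa, which encodes the aldolase of muscle and most other tissues, had a deposited signal of 3056.4 (bead SD 176.9) with FGF2 and 1784.6 (bead SD 97.1) in control. Its normalized log2 ratio was 1.02 ± 0.115, or 2.02-fold. Errors given with ± are the bead errors of both arrays combined on the log2 scale, and they leave out variation between cultures. How many beads lie behind each bead SD is not stated in the labels. Nor is it stated whether the bead SD is a spread over beads or an error of the mean. It was used as deposited, so comparisons with these errors are descriptions and not tests.

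Gapdh, the dehydrogenase that oxidizes glyceraldehyde-3-phosphate and a common reference gene, had signals of 13213.4 (bead SD 351.9) with FGF2 and 8907.2 (bead SD 205) in control. The log2 ratio was 0.74 ± 0.051, with the smallest bead error of the 6 genes. Pgk1, which encodes phosphoglycerate kinase, had 3672.4 (bead SD 131.7) with FGF2 and 2451 (bead SD 77.7) in control on its brightest probe, a log2 ratio of 0.76 ± 0.069. The other Pgk1 probe was not well above background on either array, with detection scores of 0.48 with FGF2 and 0.41 in control, and gives no ratio. These were therefore the 2 genes of the set under 2-fold. Their ratios differed by 0.014, which is less than their combined bead error of 0.086.

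Eno1, which encodes the widely expressed enolase, had signals of 2171 (bead SD 97.3) with FGF2 and 979.8 (bead SD 29.2) in control, a log2 ratio of 1.37 ± 0.078. Pkm, the pyruvate kinase gene expressed outside liver and red cells, had 7065.2 (bead SD 203.5) with FGF2 and 3572.9 (bead SD 131) in control, at 1.17 ± 0.067 or 2.25-fold. The alternatively spliced forms of Pkm could not be separated with its single probe. Eno1 and Pkm, which act last in the pathway, thus had the highest ratios of the 5 enzymes. Eno1 lay above Pkm by 0.20 with a combined bead error of 0.10, and Pkm above Aldoa by 0.16 with an error of 0.13, so Pkm and Aldoa were separated by little more than their bead error. Aldoa lay above Pgk1 by 0.26 with an error of 0.13.

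Egln3 was detected with FGF2 only, at a signal of 351 (bead SD 13.8, detection score 1). In control it had 164.8 (bead SD 6.7) with a detection score of 0.90, and was not well above background. Its ratio is therefore a bound, at least 2.02-fold higher with FGF2, taken as the normalized FGF2 signal of 380.8 over the lowest normalized signal of a detected probe on the control array, 188.4. Leaving out genes that were not detected on both arrays leaves 5 of the 6, and 3 of those 5 were at least 2-fold higher. Of all 2639 genes detected on both arrays, 1.44% were at least 2-fold higher.

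Placed among the 3005 genes, 19 had a higher ratio than Eno1, 28 than Pkm, 38 than Aldoa, 39 than the bound of Egln3, 93 than Pgk1 and 96 than Gapdh. In the authors' value table the numbers were 36 for Eno1, 64 for Pkm, 93 for Aldoa, 14 for Egln3, 151 for Pgk1 and 166 for Gapdh. The 5 enzymes were all bright probes. Among the 752 brightest genes, those with a mean normalized signal of at least 863.9, 2.79% were at least 2-fold higher and 8.91% at least 1.5-fold higher, around a median log2 ratio of 0.059. Over all 3005 genes the median was 0.028. The part of signal level in the members' ratios was not tested.

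**Figure D2:**
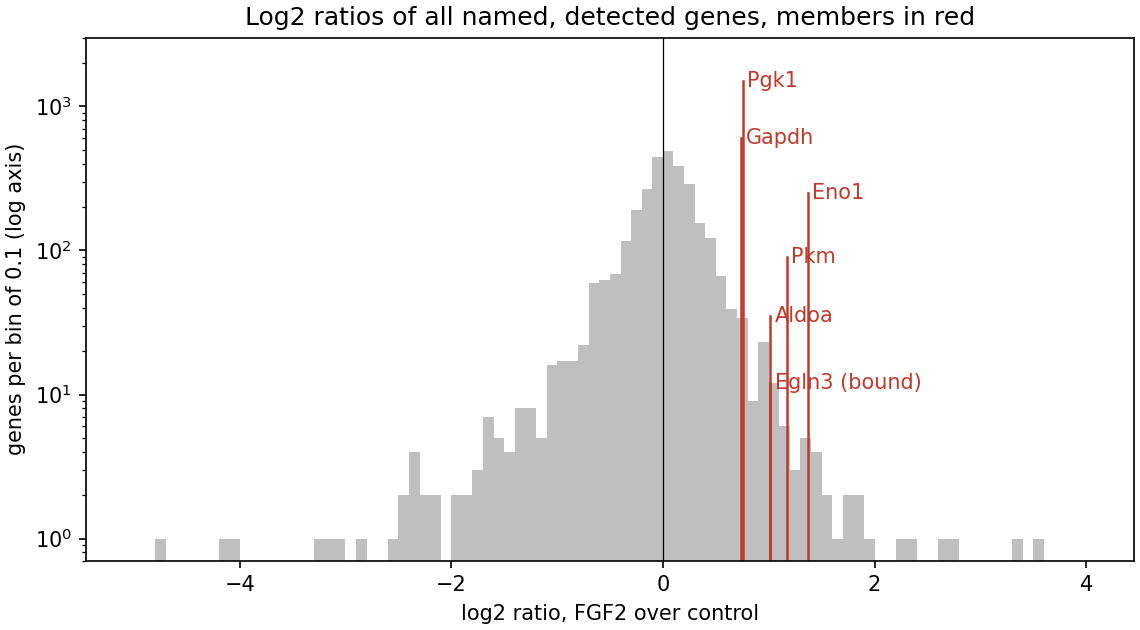
Number of named, detected genes (log axis) by log2 ratio of FGF2 over control in bins of 0.1, with each member's ratio as a red line whose height has no meaning. The 6 members lie between 0.74 and 1.37, to the right of the bulk of the 3005 genes, whose median was 0.028.

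Of the 2599 genes detected on both arrays and in none of the pathway lists, those with the nearest ratio were Mindy1 to Eno1 (1.39), Rin1 to Pkm (1.14), Fkbp4 to Aldoa (1.02), Nudc to Pgk1 (0.76) and Wwtr1 to Gapdh (0.74). Likeness here is the difference of log2 ratios over 2 arrays, a single number per gene.

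The promoters of the 6 genes are shown because the genes were higher together and because several are known HIF targets. The sequences are the 250 bases before an annotated transcript start, from RefSeq on GRCm38.p6, and all 6 genes matched, with 11 starts. The core of the HIF binding motif, ACGTG or GCGTG, was searched on both strands, and matches are in capitals, those on the opposite strand reading as CACGT or CACGC. For each gene the window with the most matches is given, and of windows with equally many the one farther upstream. The windows are Eno1 chr4:150236947-150237196 (+), Pkm chr9:59656977-59657226 (+), Aldoa chr7:126799255-126799504 (-), Pgk1 chrX:106186850-106187099 (+), Gapdh chr6:125165774-125166023 (-) and Egln3 chr12:54203875-54204124 (-).
Eno1: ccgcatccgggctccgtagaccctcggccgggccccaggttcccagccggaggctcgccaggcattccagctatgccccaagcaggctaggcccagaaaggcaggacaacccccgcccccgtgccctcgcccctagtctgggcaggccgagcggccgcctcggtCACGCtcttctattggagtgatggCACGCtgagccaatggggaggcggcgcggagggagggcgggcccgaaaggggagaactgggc
Pkm: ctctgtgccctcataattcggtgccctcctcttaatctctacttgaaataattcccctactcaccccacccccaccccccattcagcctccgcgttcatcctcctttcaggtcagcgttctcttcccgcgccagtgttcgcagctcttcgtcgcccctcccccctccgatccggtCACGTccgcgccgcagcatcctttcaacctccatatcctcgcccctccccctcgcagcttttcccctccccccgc
Aldoa: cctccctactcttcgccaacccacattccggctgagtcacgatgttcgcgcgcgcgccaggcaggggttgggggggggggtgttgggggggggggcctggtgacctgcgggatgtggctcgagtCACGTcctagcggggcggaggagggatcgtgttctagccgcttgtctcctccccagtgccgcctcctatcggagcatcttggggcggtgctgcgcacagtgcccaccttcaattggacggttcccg
Pgk1: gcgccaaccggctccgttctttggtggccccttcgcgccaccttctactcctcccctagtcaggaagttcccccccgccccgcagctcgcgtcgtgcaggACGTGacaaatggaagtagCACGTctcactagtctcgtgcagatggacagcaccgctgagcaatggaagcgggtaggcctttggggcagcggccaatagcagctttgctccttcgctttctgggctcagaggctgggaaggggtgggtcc
Gapdh: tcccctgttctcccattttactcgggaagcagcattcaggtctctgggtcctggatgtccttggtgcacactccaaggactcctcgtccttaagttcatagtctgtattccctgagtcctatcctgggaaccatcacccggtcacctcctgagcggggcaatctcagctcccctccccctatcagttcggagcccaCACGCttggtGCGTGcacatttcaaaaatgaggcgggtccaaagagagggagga
Egln3: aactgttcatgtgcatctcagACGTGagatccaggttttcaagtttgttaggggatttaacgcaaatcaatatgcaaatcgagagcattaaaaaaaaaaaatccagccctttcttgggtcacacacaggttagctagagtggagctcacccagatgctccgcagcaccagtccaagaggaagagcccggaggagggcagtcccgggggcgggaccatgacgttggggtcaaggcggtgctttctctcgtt

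In the windows shown, the Pgk1 matches begin 150 and 131 bases before the start, those of Gapdh 54 and 44 bases, and those of Eno1 86 and 62 bases. Aldoa has 1 match at 126 bases, Pkm 1 at 75 bases and Egln3 1 at 229 bases. The other Pkm start, chr9:59656326-59656575, and 1 of the 3 Aldoa starts, chr7:126800448-126800697, held no match. Of the 11 windows 9 (81.8%) held a match, counting overlapping windows of Eno1 and of Aldoa that share the same letters. A match was as common as 57.7% among 3201 windows of 2440 detected named genes, 58.3% among 36 windows of the glycolysis list, and 38.6% among all 32851 windows. The E-box CACGTG, which contains ACGTG, was in none of the 11 windows and in 6.02% of all windows. A match in these letters is a description and not a binding site.

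The rest of glycolysis was less uniform. Of 27 genes listed for its enzymes, 17 had a named probe and 13 were detected, of which 3 passed 2-fold and 6 passed 1.5-fold upward and 0 passed 1.5-fold downward. Their median log2 ratio was 0.53, against 0.028 for all genes, but 5 of the 13 are the enzymes described above. The other 8 had a median of 0.099, and 1 of them reached 1.5-fold. The sign of that median turned with signals as deposited, where it was −0.12 against −0.14 for all genes. It was also negative with median scaling (−0.074 against −0.10) and with signals scaled to equal Gapdh (−0.69 against −0.71).

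That gene was Gpi1, whose enzyme interconverts glucose and fructose phosphates, with signals of 1667.1 with FGF2 and 1280.6 in control and a log2 ratio of 0.64 ± 0.093. Tpi1, which encodes triosephosphate isomerase, was at 0.53 ± 0.082. The phosphofructokinase genes Pfkl and Pfkm, for the committed step before aldolase, were at −0.069 ± 0.064 and 0.085 ± 0.073. The Aldoa ratio lay above that of Pfkl by 1.08 with a combined bead error of 0.13. Pgam1, for the mutase between Pgk1 and enolase, was at 0.14 ± 0.078 on a dim probe with signals of 214.1 with FGF2 and 213.8 in control. Adpgk, an ADP-dependent glucokinase gene, lay near 0 with signals of 213.4 with FGF2 and 236.7 in control. The hexokinase gene Hk1 and the platelet phosphofructokinase gene Pfkp were not detected on either array. Phosphofructokinase, the step just before aldolase, was thus near 0, while the ratio of the mutase rests on a probe close to the lowest detected signals.

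Within enolase the isozymes differed. Eno2, the neuronal form, had signals of 444.9 with FGF2 and 485.1 in control and a ratio of 0.11 ± 0.064. Eno1 exceeded it by 1.26 on the log2 scale with a combined bead error of 0.10. Eno3, the muscle form, was detected in control only and near the floor. Within the HIF hydroxylases, Egln1, the main regulator of HIF stability in most cells, was at −0.022 ± 0.067. This rests on a dim probe, with 246.3 with FGF2 and 284.6 in control, at −0.038 in the authors' value table. Another Egln1 probe, with 159.3 with FGF2 and 170.4 in control, was not detected on either array. The bound of Egln3 exceeded the ratio of Egln1 by 1.04, so that difference is itself a lower bound. No error is given with it, because the floor used for Egln3 in control has no bead error.

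**Figure D3:**
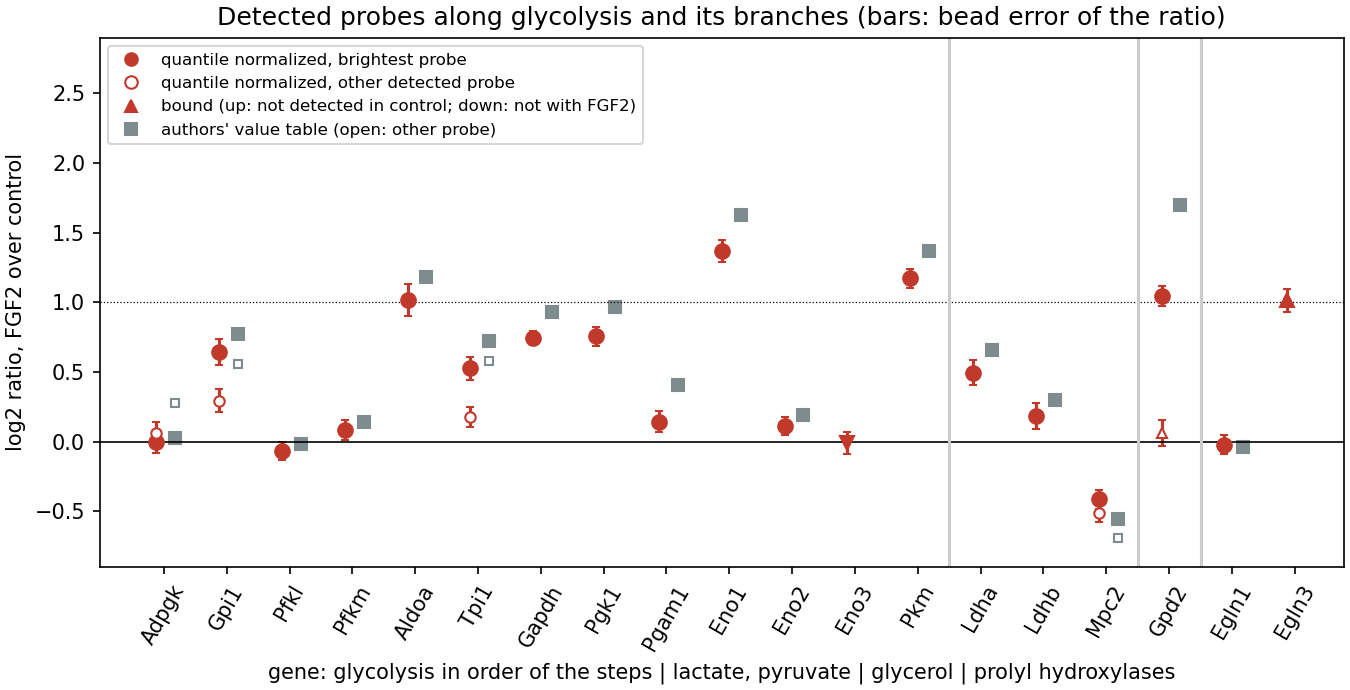
Log2 ratio of FGF2 over control for every detected probe of glycolysis in the order of its steps, of lactate and pyruvate enzymes, of Gpd2 and of the prolyl hydroxylases; red points are quantile normalized with bead errors, grey squares are from the authors' value table, open symbols are probes other than the brightest, and triangles are bounds. Eno1, Pkm, Aldoa, Gpd2 and Egln3 reach the dotted line at 2-fold in red, while Pfkl, Pfkm, Eno2 and Egln1 lie near 0 and Pgam1 is at 0.14 in red and 0.41 in grey.

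Some enzymes had a bright and a dim detected probe that gave different ratios. Gpi1 was at 0.64 on the bright probe and 0.30 on the dim one, whose signals were 304.8 with FGF2 and 284.9 in control. Tpi1 was at 0.53 on the bright probe and 0.18 on the dim one, with 206.4 and 198.7. In the authors' value table the same pairs were at 0.78 and 0.56 for Gpi1 and at 0.72 and 0.58 for Tpi1, and Pgam1 was at 0.41. That table has background subtracted and its FGF2 values multiplied by 1.28, so it differs in both background and scale. The ratios of dim probes thus depended on the processing, and the parts of background and of scale in this were not tested. The signals of all 5 member enzymes were far from the lowest detected signals of 184.9 with FGF2 and 194.6 in control, and Egln3 was not.

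Downstream of pyruvate kinase, Ldha, the lactate dehydrogenase subunit that favours lactate production, was at 0.49 ± 0.090 with signals of 3062.7 with FGF2 and 2506.3 in control. Pkm exceeded it by 0.68 with a combined bead error of 0.11. Ldhb, the other subunit, was at 0.18 ± 0.095. Mpc2, a subunit of the carrier that brings pyruvate into mitochondria, was lower, at −0.41 ± 0.067 on its brightest probe and −0.51 ± 0.063 on the other. None of the 3 detected genes of the list for lactate and pyruvate entry differed 1.5-fold after quantile normalization, but Ldha was 1.58-fold higher in the authors' value table.

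Gpd2, the mitochondrial glycerol phosphate dehydrogenase that passes on electrons from cytosolic NADH, was the 1 detected gene of the glycerol branch and was 2.07-fold higher (1.05 ± 0.075), with 494.7 with FGF2 and 277.9 in control. Its dim probe was detected with FGF2 only and gave a bound near 0. Of 9 detected citrate cycle genes 1 was at least 1.5-fold higher and none lower, with a median of 0.32. Dlst, a subunit of the 2-oxoglutarate dehydrogenase complex, was at 0.65 ± 0.054 and the cytosolic isocitrate dehydrogenase gene Idh1 at −0.33. The 3 detected genes for the bifunctional enzymes that control glycolysis through a regulatory fructose bisphosphate were near 0, with Pfkfb3 at −0.027, Pfkfb4 at 0.021 and Pfkfb2 at 0.058. None of 3 transporters of glucose or lactate, 3 glycogen genes, 2 serine synthesis genes and 1 gluconeogenesis gene with a named probe was detected.

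In the HIF pathway, 7 of 18 listed genes had a named probe and 4 were detected. Beside Egln3 and Egln1 these were Elob and Rbx1, subunits of the ubiquitin ligase that removes HIF, at −0.0078 and −0.11. The probes of Hif1a, Arnt and Hif3a were not detected on either array, so the transcripts of these HIF subunits were not measurable here. Of 43 listed hypoxia and HIF target genes outside the glycolytic enzymes, 13 had a named probe and 6 were detected, with 1 at least 2-fold higher, 1 at least 2-fold lower and a median of 0.31. Cited2, which competes with HIF for a coactivator and is itself a HIF target, had deposited signals of 389.9 with FGF2 and 172.7 in control, where it was not well above background. After normalization it was at 427 with FGF2, at least 2.27-fold above the 188.4 of the lowest detected probe in control, while the ratio of its deposited signals was 2.26. Igfbp3, an IGF binding protein gene, was at −2.36 ± 0.055. Mif (a cytokine) was at 0.46, Angptl4 (a lipase inhibitor) at 0.32, Mxi1 at 0.30 and Rora at −0.033.

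Among other hydroxylases that use 2-oxoglutarate, Asph, which hydroxylates aspartate residues, was at 0.69 ± 0.070 with 734.7 with FGF2 and 540.5 in control. P4ha3, a collagen prolyl hydroxylase subunit, was detected in control only, with 169.8 with FGF2 and 326.1 in control, and was at least 1.60-fold lower. The Egln3 ratio therefore did not extend to the dim detected probe of Egln1, and the detected hydroxylases lay on both sides of 0. Of the list of MYC and growth pathway genes, Mxd4, a MAX partner that opposes MYC, was at −0.71 ± 0.073, past 1.5-fold downward, and Akt2, a kinase of growth factor signalling, was at −0.11. The Myc probe was not detected on either array.

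The ratios of the 6 genes depended on the scaling of the arrays, and that of Egln3 also on the treatment of background. With signals as deposited, Eno1 was at 1.15 and the other 5 members between 0.57 and 0.98. Thus 1 of the 6 was at least 2-fold higher and 4 at least 1.5-fold higher. Of all 3005 genes 0.93% were at least 2-fold higher in that setting, and their median was −0.14. The share of all genes past 1.5-fold was counted only after quantile normalization, so the 4 members at 1.5-fold have no background here. In the authors' value table Eno1 was at 1.63, Pkm at 1.37, Aldoa at 1.18, Pgk1 at 0.97 and Gapdh at 0.93, with a median of 0.12 over all genes. Egln3, which is empty there in control, was at 2.24 against the lowest control value of that table. Scaling both arrays to equal Gapdh signals, which sets Gapdh to 0, left Eno1 at 0.58, Pkm at 0.41, Aldoa at 0.21 and Pgk1 at 0.014, with a median of −0.71 over all genes. Scalings by a single factor per array cannot change the order of the ratios.

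**Figure D4:**
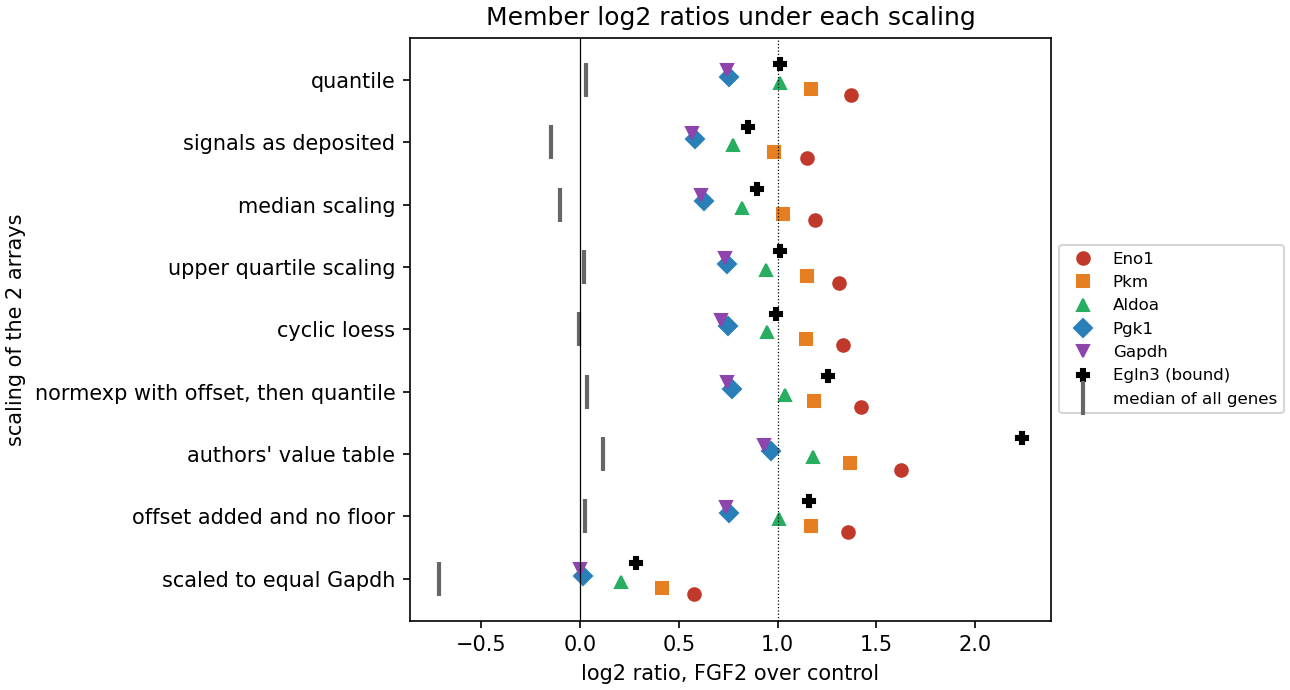
Log2 ratio of FGF2 over control of the 6 genes under 9 scalings of the arrays, with the median of all genes as a grey bar and dotted and solid lines at 2-fold and at 0. All points lie to the right of that line's median, and Egln3, not well above background in control, ranges from 0.28 to 2.24.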

How the data were processed

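Total RNA of 2 cultures, FGF2 and control, was amplified from 300 ng with 6 h of in vitro transcription and read on 1-colour (Cy3) Illumina bead arrays, per the labels' protocols. The deposited per-sample tables hold the mean intensity over beads, a bead standard deviation and a detection score, here read as a fraction from 0 to 1. They were made with BeadStudio 1.0 per the submitters' processing notes. How that program normalized them is not stated. Set against these signals, the authors' value table was a linear intensity: the control signal minus 135.4, and, with FGF2, the signal minus 132.6 with the difference multiplied by 1.28. It is empty under a detection score of 0.99 and has column medians of 276.8 (FGF2) and 262.1 (control). Its direction and scale follow from this and it is not centred, but what sets the factor is unknown.

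Deposited signals were quantile normalized (limma 3.58.1, R 4.3.3), floored at the lowest normalized signal of a detected probe (191.7 with FGF2, 188.4 in control) and put on a log2 scale. The brightest probe stood for its gene. A gene detected on 1 array gives a bound. Quantile normalization and the ratio step were tested on simulated data in which every probe counted as detected. The floor, the bounds and the choice of the brightest probe were not tested in this way. Groups came from titles and descriptions. Members and lists were chosen with earlier results of these data known, and the promoter motif and the windows printed were chosen after the files were read. Named genes were the 6 members with all probes, then detected list genes, those past 1.5-fold first, and for each member the nearest gene by ratio. Copies, counted by gene name alone, are listed in RefSeq for Aldoa (4), Pgk1 (3), Gapdh (3) and Eno1 (1). Probe sequences were not used here, so signal from those copies was not tested.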

Additional observations from a re-analysis of the deposited data

How the results depend on the processing

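Of 12 alternatives, 11 were planned. The 12th, scaling to equal Gapdh signals, was added after the data were seen. Together they gave 155 values, of which 107 moved by less than the bead error (for the glycolysis median, the median bead error of the 6 genes, 0.073) or, for counts, by at most 1.5 times, and 48 moved further. Signals as deposited gave Eno1 1.15, Pkm 0.98, Aldoa 0.78, Pgk1 0.58, Gapdh 0.57 and Egln3 0.85, with 1 member at least 2-fold higher, 1 glycolysis gene at least 2-fold and 3 at least 1.5-fold higher, a glycolysis median of 0.35 and 28 genes in all at least 2-fold higher. Median scaling gave 1.19, 1.03, 0.82, 0.63, 0.61 and 0.89 for the same genes, with 2 members at 2-fold, a glycolysis median of 0.40 and 29 genes higher. The authors' value table gave 1.63, 1.37, 1.18, 0.97, 0.93 and 2.24 (Egln3 against the lowest control value), a glycolysis median of 0.72, and 138 genes higher and 158 lower in all, against 44 and 78. Scaling to equal Gapdh gave 0.58, 0.41, 0.21, 0.014, 0 and 0.28, with 0 members and 0 glycolysis genes at 2-fold or 1.5-fold, a glycolysis median of −0.21, 11 genes higher and 562 lower in all, and a median of −0.71 over all genes, so that each member but Gapdh lay above 0 and all lay above that median. Loess left 2 members at 2-fold, with 37 genes in all at least 2-fold higher. Egln3 was at 1.13 with a detection score of 0.95, 1.25 after normexp and 1.16 with an offset of 16 and no floor, and it has no value where detection on both arrays was required. The glycolysis median was 0.35 over the mean of detected probes and 0.18 over the dimmest. The share of genes past 2-fold that were higher was 36.1%, with 19.9% for signals as deposited, 21.3% for median scaling, 46.6% in the authors' value table and 1.92% with equal Gapdh. No paired analysis was possible because each group had 1 array. Leaving out a replicate was likewise not possible, bead errors cover reading error only, and the causes of these shifts were not tested.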
